A study of Mus musculus with 16 samples.

Results

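The comparison described here asked how loss of p38α in microglia altered their transcriptome in a mouse model of amyloid deposition. It sets the microglia of 4 AD p38KO mice against those of 4 AD p38+/+ mice, 8 of the 16 libraries of the series. The genes were those with at least 1 CPM (read counts scaled to a common library total) in at least 4 of the 8 libraries, which kept 12967 of the 20267 genes listed. All mice were C57BL/6J and homozygous for a floxed allele of Mapk14 (p38fl/fl), whose first exon is flanked by loxP sites. AD mice carried APPswe/PS1dE9+/-, a human amyloid precursor protein and a presenilin 1 transgene with mutations of familial Alzheimer's disease, and WT mice lacked it. The p38KO mice were also Cx3cr1-creERT2+/-, and the p38+/+ mice were Cx3cr1-creERT2-/-. The 4 groups were thus AD p38KO, AD p38+/+, WT p38KO and WT p38+/+, with 4 mice each. All mice, controls included, were fed tamoxifen chow (400 ppm) during 4 weeks, starting when 5 months old, and the cells were collected at 11 months. Mouse 1 of each AD group was labelled female and mice 2 to 4 male. The library of AD p38KO mouse 1 had almost no sex-linked signal of either kind: Xist, Tsix and 4 Y-linked genes summed to 0.977 CPM in it, against 272.6 CPM in AD p38+/+ mouse 1 and 107.989 to 135.08 CPM in the AD libraries labelled male. The near absence of Y-linked RNA matched its female label, while that of Xist and Tsix did not. The reason was not tested. Because the control mice carried no Cre, deletion of p38α and the CreERT2 insertion at Cx3cr1 cannot be told apart in any value below.

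Mapk14 encodes p38α, a stress-activated kinase. Upstream kinases such as MAP3Ks and MAP2Ks switch it on after signals from Toll-like or cytokine receptors, and it passes the signal on through kinases such as MAPKAPK2 and transcription factors such as MEF2 and ATF proteins, while dual-specificity phosphatases switch it off. In microglia, the resident macrophages of the brain, this pathway is best known for driving the production of inflammatory cytokines. Cx3cr1, the receptor for the neuronal chemokine fractalkine, is expressed by nearly all microglia, which is why its locus is used to drive Cre recombinase in them. Cells were sorted as live CD11b+/P2ry12+ cells, about 10000 per mouse. Since P2ry12, a purinergic receptor, is lost from the surface of strongly activated microglia, cells with little of it were not measured.

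The 8 libraries held by the smallest steps of their values, similar numbers of assigned reads, such that 3 reads corresponded to 0.203 to 0.239 CPM in AD p38KO and 0.201 to 0.213 CPM in AD p38+/+ libraries. Microglial genes dominated: P2ry12 lay at 7158 to 8216 CPM in AD p38KO, against 6639 to 8585 CPM in AD p38+/+ mice, and Tmem119 at 6052 to 6092 CPM in AD p38KO, against 5022 to 6726 CPM in AD p38+/+ mice. Markers of neurons summed to 5.203 to 12.1 CPM in AD p38KO and 4.48 to 8.79 CPM in AD p38+/+ mice. In bulk RNA, fewer cells of a type and less RNA per cell cannot be told apart. Libraries of the AD p38KO group stood apart from the others. Between 15467 and 16831 genes were detected in AD p38KO and between 17205 and 18034 in AD p38+/+ libraries, without overlap (exact permutation test, two-sided, p = 0.0286, the smallest that 4 against 4 mice allow). AD p38KO mouse 4 lay alone on the first principal component and mouse 1 on the second, and the median SD between mice was 0.370 on the log2 scale in AD p38KO against 0.230 in AD p38+/+ mice. Mouse 4 of the AD p38KO group also had 467 CPM of red blood cell markers, against 0.0796 to 2.72 CPM in the other AD p38KO and 0.211 to 12.9 CPM in the AD p38+/+ libraries. The part of these differences in the results below was tested only by leaving libraries out.

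The isoform 1 transcript of Mapk14 was lower in every mouse labelled p38KO of the AD groups. Its first exon is shown because it is the segment that Cre deletes: on chr17:28691342-28691855 (GRCm38, plus strand) it holds 514 bases, and its coding part, chr17:28691740-28691855, carries the start codon of isoform 1, in capitals.
Mapk14 first exon, coding part: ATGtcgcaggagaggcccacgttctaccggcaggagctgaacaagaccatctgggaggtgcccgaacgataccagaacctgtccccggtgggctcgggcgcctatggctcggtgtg
The transcript for isoform 1, ENSMUST00000062694, begins with this exon. Its level was 0.0931, 0.0574, 0.112 and 0.248 CPM in the AD p38KO group, against 71.05, 68.2, 65.1 and 58.5 CPM in the AD p38+/+ group. Every AD p38KO mouse lay below every AD p38+/+ mouse, and 3 of the 4 AD p38KO libraries were under the level of 3 reads (limma on log2(CPM + 0.5), adjusted p = 3.36e-11). It made up 0.0837% of all Mapk14 signal in AD p38KO and 40.1% in AD p38+/+ mice.

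The gene as a whole was not lower by the test. Mapk14 summed over its transcripts was 142, 157, 166 and 145 CPM in the AD p38KO group, against 152, 173, 162 and 169 CPM in the AD p38+/+ group, and the groups overlapped (log2 difference, AD p38KO minus AD p38+/+, -0.11, 95% interval -0.32 to 0.11, adjusted p = 0.914). What differed was the transcript to which reads were assigned. ENSMUST00000114752, which holds 0 bases of the deleted exon, was 135, 147, 154 and 138 CPM in the AD p38KO group, against 61.3, 82.7, 73.7 and 80.2 CPM in the AD p38+/+ group. It rose by 0.95 in log2 units (SE 0.125, adjusted p = 0.00326) and made up 94.1% of the Mapk14 signal in AD p38KO against 45.4% in AD p38+/+ mice. ENSMUST00000004990 and ENSMUST00000114754 both contain all 514 bases of the exon. ENSMUST00000004990 was 3.21, 6.7997, 8.74 and 0.00447 CPM in the AD p38KO group, against 14.05, 12.5, 19.5 and 23.9 CPM in the AD p38+/+ group, a log2 fold change of -2.38 (adjusted p = 0.332), and ENSMUST00000114754 had a log2 fold change of -1.67 (adjusted p = 0.232). Neither passed the test. ENSMUST00000233811, which holds 411 bases of the exon, was scarce and overlapped, at 2.73, 2.62, 1.92 and 3.81 CPM in the AD p38KO group, against 1.76, 3.82, 1.04 and 2.36 CPM in the AD p38+/+ group (log2 difference 0.32, adjusted p = 0.884). Some signal was thus still assigned to transcripts with this exon in AD p38KO mice. Reads of exons that transcripts share were divided among them by estimation, which makes transcript levels less certain than gene levels.

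**Figure D1:**
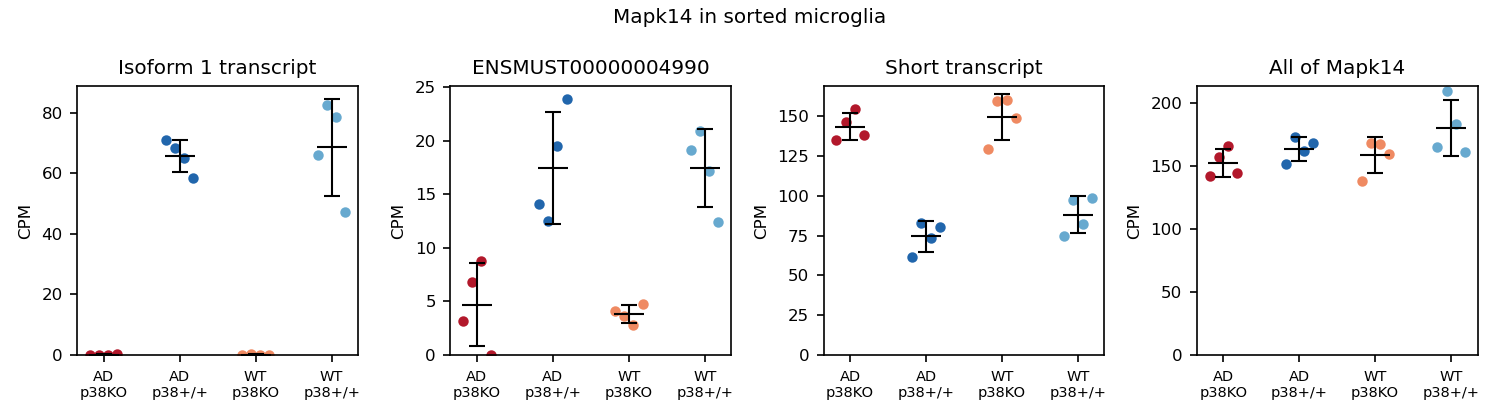
CPM (vertical axis) of the isoform 1 transcript of Mapk14, of ENSMUST00000004990, of the short transcript ENSMUST00000114752 and of Mapk14 summed over transcripts, for the 16 libraries by group. Each point is a mouse, with the mean ± SD of its group (n = 4); the isoform 1 transcript reaches at most 0.248 CPM in AD p38KO mice and at least 58.5 CPM in AD p38+/+ mice, while the whole gene overlaps between them.

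Across all genes, 7 of 12967 differed between AD p38KO and AD p38+/+ microglia at an adjusted p under 0.05 (limma, Benjamini-Hochberg) and are named called genes. 1 gene rose (0.00771% of those tested), Lgi4, and 6 fell (0.0463%): Cx3cr1, Mid1, H2ac6, H4f16, Gm20628 and Pcdhgc3. Gm20628 and Pcdhgc3 are among 14 genes that passed the filter only through the AD p38+/+ group and so could only be lower. At an unadjusted p under 0.05, 313 genes were higher (2.41%) and 572 lower (4.41%). In 178 genes (1.37%) every AD p38KO mouse lay above every AD p38+/+ mouse, and in 234 genes (1.8%) below. The median log2 fold change of all genes was -0.02. Of the genes at an unadjusted p under 0.05, the share that was lower was 81.9% at a mean under 2 CPM, 78.8% at 2 to 5 CPM, 62.4% at 5 to 20 CPM, 57.8% at 20 to 100 CPM and 44.3% at 100 CPM or more. Fewer genes were also detected in the AD p38KO libraries, as given above, and the part of that in these shares was not tested. With quantile normalization 53.8% of the genes at an unadjusted p under 0.05 were lower, against 64.6% as deposited.

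**Figure D2:**
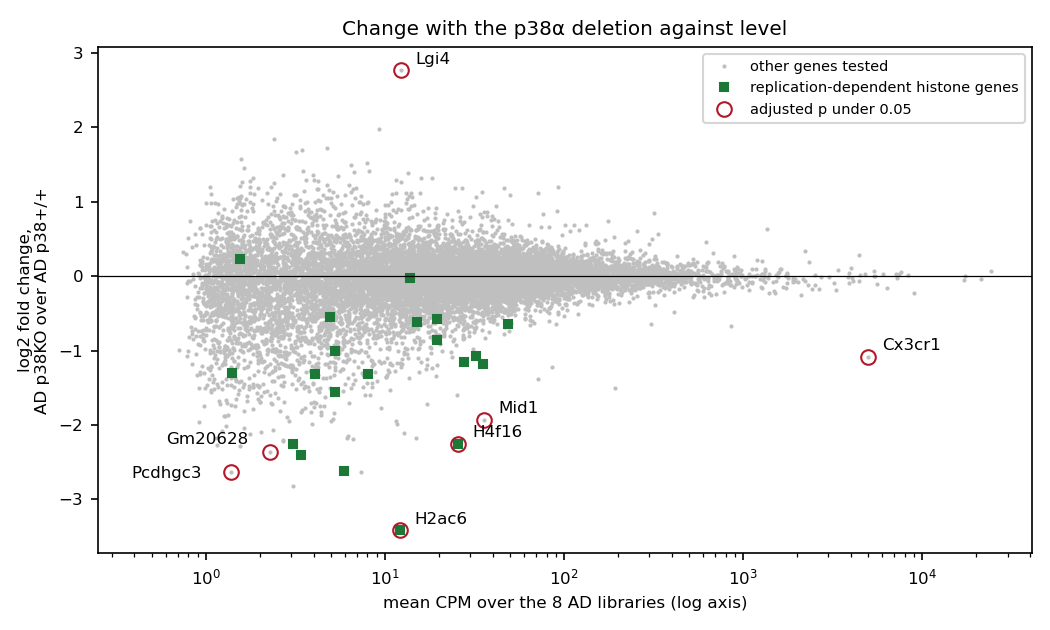
Log2 fold change of AD p38KO over AD p38+/+ microglia (vertical axis) against the mean CPM over the 8 AD libraries (horizontal axis, log scale) for the 12967 genes tested. Red circles mark the 7 genes with an adjusted p under 0.05 and green squares the 20 histone genes tested; Cx3cr1 lies alone at high expression, while 19 of the 20 histone genes lie below 0.

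Cx3cr1 (ENSMUSG00000052336, chr9:119901616-120069879, minus strand) was 3126, 2978, 3042 and 3609 CPM in the AD p38KO group, against 5639, 6943, 7429 and 7044 CPM in the AD p38+/+ group. The groups were far apart relative to their spread, with the highest AD p38KO mouse well below the lowest AD p38+/+ mouse. Cx3cr1 fell by 1.08 in log2 units (SE 0.0937, adjusted p = 1.83e-05), to 0.471 of the AD p38+/+ mean, and of the 7 called genes it alone stayed called in all 30 alternative settings. The fall was of like size in mice without amyloid: -1.17 between WT p38KO and WT p38+/+ mice (adjusted p = 5.24e-06), the only gene called in that comparison (1 of 12967, 0.00771%, against 446 at an unadjusted p under 0.05). The difference between the AD and the WT effect had an unadjusted limma p of 0.505. CreERT2 is inserted in this gene, so its level also differs between the groups by the design.

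Genes next to Cx3cr1 were examined because Cre-bearing mice share this stretch of chromosome 9. Within 5 Mb of the gene, 73 genes were tested, with a median log2 fold change of -0.01. Besides Cx3cr1 none was called. At an unadjusted p under 0.05, 1 gene (Trak1) was higher and 6 lower, Cx3cr1 among them (2.41% and 4.41% of all genes). Gm33858, which overlaps the 5′ end of Cx3cr1 on the opposite strand, was 13.7, 22.998, 31.9 and 40.2 CPM in the AD p38KO group, against 35.6, 45.6, 39.3 and 48.3 CPM in the AD p38+/+ group, with overlap. Trak1, an adaptor for mitochondrial transport, was 59.8, 52.5, 49.5 and 76.9 CPM in the AD p38KO group, against 54.2, 36.7, 46.6 and 29.8 CPM in the AD p38+/+ group, and its adjusted p was 0.699. As the counting is not stated to use strand, reads of Gm33858 and Cx3cr1 cannot be told apart where they overlap.

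Lgi4 (ENSMUSG00000036560, chr7:31059342-31070935, plus strand), a secreted ligand known from Schwann cells, where it acts in myelination of peripheral nerves through the receptor ADAM22, was the one gene to rise. It was 27.7, 18.3, 18.003 and 23.1 CPM in the AD p38KO group, against 1.797, 4.96, 2.91 and 1.99 CPM in the AD p38+/+ group. Every AD p38KO mouse exceeded the highest AD p38+/+ mouse by a wide margin, and the mean was 7.48 times that of the AD p38+/+ group (log2 difference 2.77, standard error 0.343, adjusted p = 0.00176). In WT mice Lgi4 was 20.8, 8.45, 24.9 and 18.9 CPM in WT p38KO mice, against 8.62, 4.99, 4.78 and 4.11 CPM in WT p38+/+ mice, a log2 fold change of 1.57 (adjusted p = 1), and 1 WT p38KO mouse lay inside the WT p38+/+ range. The difference between the AD and the WT effect had an unadjusted p of 0.0234 that did not pass adjustment. The call held without any single library, but not without AD p38KO mice 1 and 4 together (adjusted p = 0.0654). Of the LGI and ADAM family, 2 of 7 listed genes passed the filter. The receptor gene Adam22 was 13.2, 11.1, 2.95 and 18.9 CPM in the AD p38KO group, against 9.03, 5.79, 10.3 and 3.76 CPM in the AD p38+/+ group, with overlapping groups (log2 difference 0.49, adjusted p = 0.899). The end of Lgi4 overlaps that of Fxyd3 on the opposite strand.

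Mid1 (ENSMUSG00000035299, chrX:169685199-170005736, plus strand) encodes a microtubule-bound ubiquitin ligase that targets the catalytic subunit of protein phosphatase 2A, and in the mouse it spans the boundary of the pseudoautosomal region. Its level was 16.2, 13.2, 12.4 and 16.3 CPM in the AD p38KO group, against 64.5, 47.9, 65.4 and 49.5 CPM in the AD p38+/+ group. All 4 AD p38KO mice lay within a narrow range below every AD p38+/+ mouse. Mid1 fell by 1.93 in log2 units (SE 0.288, adjusted p = 0.0144), and the call was lost when mouse 1 (adjusted p = 0.0991) or 3 (0.0789) of the AD p38+/+ group, or both AD p38KO mice 1 and 4 (0.0667), were left out. In WT mice it was 25.1, 47.2, 25.3 and 11.5 CPM in WT p38KO mice, against 53.6, 54.2, 39.1 and 40.3 CPM in WT p38+/+ mice, a log2 fold change of -0.91 (adjusted p = 1), and the groups overlapped. Of 7 tested partners of Mid1, none had an unadjusted p under 0.05, and their median log2 fold change was 0.07. Ppp2ca, the phosphatase subunit that Mid1 targets, was 289, 275, 271 and 239 CPM in the AD p38KO group, against 266, 286, 272 and 246 CPM in the AD p38+/+ group. Its 95% interval of the log2 fold change was -0.23 to 0.24.

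Other genes at the shared ends of chromosomes X and Y were lower as well. Their list was drawn up after values were seen and includes Mid1 itself. All 5 tested members, Mid1 among them, had a negative log2 fold change (median -1.39, against -0.82 for the same genes in WT mice). G530011O06Rik, a noncoding RNA that lies within Mid1 on the opposite strand (chrX:169975043-169978917), was 25.99, 30.6, 46.4 and 60.04 CPM in the AD p38KO group, against 105.1, 82.3, 134 and 91.8 CPM in the AD p38+/+ group. Gm21860, a noncoding RNA placed at chrY:90752427-90755467, was 77.7, 98.4, 112.9 and 110.5 CPM in the AD p38KO group, against 387, 287, 269.6 and 209 CPM in the AD p38+/+ group. For both genes the groups did not overlap, although neither gene was called (adjusted p = 0.182 and 0.162). Without WT p38KO mouse 4 both were called (adjusted p = 0.0377 for G530011O06Rik and 0.000636 for Gm21860), and Gm21860 also in the fit of the 8 AD libraries alone (0.0216). Without AD p38KO mouse 1, which had almost no Xist, Tsix or Y-linked signal, the log2 fold changes were -1.20 for G530011O06Rik, -1.39 for Gm21860 and -1.98 for Mid1 (adjusted p = 0.327 and 0.294 for the first and the second, while Mid1 stayed called). Ddx3y, a helicase gene elsewhere on the Y chromosome, overlapped, at 0, 35.97, 42.01 and 39.3 CPM in the AD p38KO group, against 0.0669, 40.1, 52.6 and 47.4 CPM in the AD p38+/+ group. Reads from the X and Y copies of this region may be split between near-identical sequences, so the level of a single one of these genes is uncertain. As the counting is not stated to use strand, reads of G530011O06Rik and Mid1 cannot be told apart where they overlap.

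**Figure D3:**
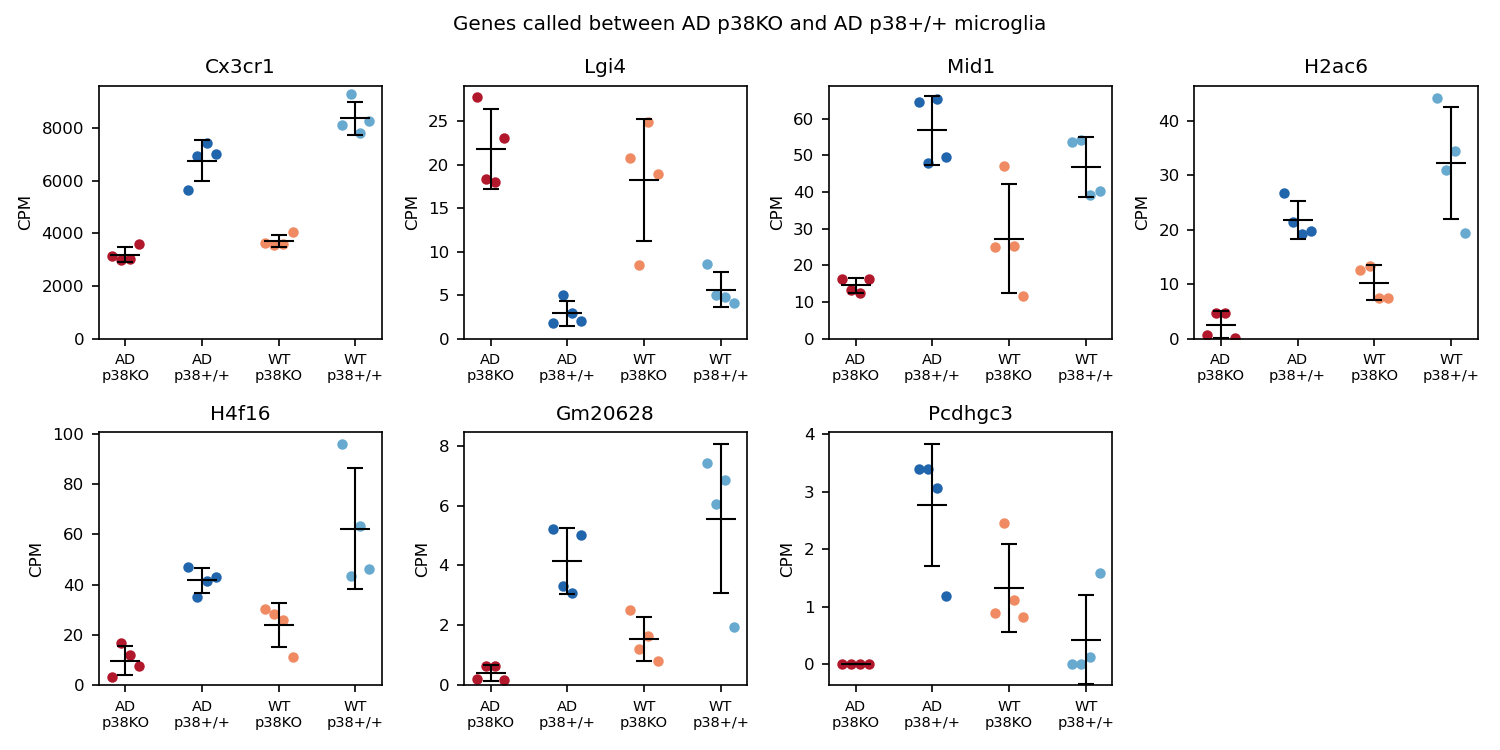
CPM (vertical axes, from 0 or just below) of the 7 genes with an adjusted p under 0.05, by group. Each point is a mouse, with the mean ± SD of its group (n = 4). For all 7 genes the AD p38KO mice lie apart from the AD p38+/+ mice; Pcdhgc3 is listed at 0 in the 4 AD p38KO libraries.

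Replication-dependent histone genes were lower as a group in AD p38KO microglia. These genes supply the core and linker histones H2A, H2B, H3, H4 and H1 during DNA replication, stand in clusters, and give mRNAs that mostly lack a poly(A) tail. Of 63 listed genes, 46 were in the table and 20 passed the filter. 19 of the 20 had a negative log2 fold change, 15 had an unadjusted p under 0.05 and were lower, while 0 were higher (4.41% and 2.41% of all genes), 10 did not overlap between the groups (1.8% of all genes), and 2 were called. Their median log2 fold change was -1.16, against -0.02 for all genes, and -0.42 over the listed genes with no filter on low values. In WT mice the median of the same 20 genes was -0.96, with 12 lower at an unadjusted p under 0.05, against 200 of all 12967 genes. Summed over the 46 listed genes, histone RNA was 156.5, 236.6, 258.0 and 145.3 CPM in AD p38KO, against 519.4, 365.2, 340.4 and 381.7 CPM in AD p38+/+ mice, without overlap and at 49.6% of the AD p38+/+ mean. Without AD p38KO mice 1 and 4, the log2 ratio of the mean sums was -0.70, against -1.01 with all mice. Genes with near-identical copies share reads, so the level of a single histone gene is uncertain.

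H2ac6, a gene for histone H2A (chr13:23681467-23683948, minus strand), was 0.695, 4.77, 4.63 and 0.0699 CPM in the AD p38KO group, against 26.8, 21.4, 19.3 and 19.8 CPM in the AD p38+/+ group. The AD p38KO mice were uneven, with mice 1 and 4 far below mice 2 and 3, but all lay well below the AD p38+/+ mice. H2ac6 fell by 3.42 in log2 units (SE 0.535, adjusted p = 0.0197). The call was lost without AD p38KO mouse 1 (adjusted p = 0.0641) or without AD p38+/+ mouse 1 (0.122), 2 (0.0917), 3 (0.0789) or 4 (0.0617). H2bc4, a gene for histone H2B that starts nearby and runs the other way, was 22.14, 9.37, 11.9 and 11.1 CPM in the AD p38KO group, against 24.8, 10.2, 11.002 and 10.4 CPM in the AD p38+/+ group. Its groups overlapped fully (log2 difference -0.02, 95% interval -0.87 to 0.83). In WT mice H2ac6 was 12.6, 13.4, 7.54 and 7.404 CPM in WT p38KO mice, against 44.3, 31.02, 34.6 and 19.3 CPM in WT p38+/+ mice (log2 fold change -1.60, adjusted p = 1), and the difference between the AD and WT effects had an unadjusted p of 0.0277.

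H4f16, a gene for histone H4 that lies outside the large clusters (chr6:136801553-136804415, minus strand), was 3.08, 16.6, 11.8 and 7.51 CPM in the AD p38KO group, against 46.96, 35.2, 41.4 and 42.98 CPM in the AD p38+/+ group. The groups did not overlap, and H4f16 fell by 2.25 in log2 units (SE 0.399, adjusted p = 0.0494). This call was weak: it was lost without any single library except AD p38KO mouse 2 or WT p38KO mouse 4 (adjusted p of 0.051 to 0.261). Other histone H4 genes had lower values too without passing the test. H4c9 was 1.504, 1.07, 4.43 and 0.0677 CPM in the AD p38KO group, against 11.2, 10.5, 8.93 and 9.89 CPM in the AD p38+/+ group (adjusted p = 0.132), and H4c14 was 1.504, 1.59, 0.466 and 0 CPM in the AD p38KO group, against 5.02, 5.31, 7.81 and 5.46 CPM in the AD p38+/+ group (adjusted p = 0.0949). H4c4, the most abundant of them, was 16.8, 26.02, 33.4 and 13.4 CPM in the AD p38KO group, against 54.2, 46.6, 39.2 and 54.1 CPM in the AD p38+/+ group (adjusted p = 0.282). In each of these 3 genes the lowest AD p38KO value was that of mouse 4. H1f4, a linker histone gene, was 32.9, 41.3, 50.5 and 28.5 CPM in the AD p38KO group, against 73.5, 52.3, 51.7 and 60.6 CPM in the AD p38+/+ group, a smaller difference (log2 difference -0.65, adjusted p = 0.732).

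The promoters of the called histone genes are printed to show exact matches to short motifs, from 250 bases before to 50 bases after the start of transcription (RefSeq, GRCm38.p6). Capitals mark matches on either strand to CCAAT, bound by NF-Y, to TATAAA, bound by TBP, and to ATTTGCAT, bound by octamer factors.
H2ac6 promoter, chr13:23683910-23684209, minus strand: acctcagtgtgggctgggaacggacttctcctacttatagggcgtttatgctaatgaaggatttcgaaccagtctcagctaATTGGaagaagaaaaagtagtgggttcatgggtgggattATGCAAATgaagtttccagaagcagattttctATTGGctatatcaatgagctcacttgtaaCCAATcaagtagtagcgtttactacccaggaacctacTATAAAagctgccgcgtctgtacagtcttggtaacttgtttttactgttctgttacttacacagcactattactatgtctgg
H4f16 promoter, chr6:136804382-136804681, minus strand: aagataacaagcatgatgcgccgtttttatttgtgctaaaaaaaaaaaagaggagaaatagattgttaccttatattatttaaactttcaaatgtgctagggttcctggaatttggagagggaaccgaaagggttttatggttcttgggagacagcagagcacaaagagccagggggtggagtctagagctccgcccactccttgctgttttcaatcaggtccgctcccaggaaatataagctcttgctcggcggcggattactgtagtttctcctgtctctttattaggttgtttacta
H2ac6 held 3 exact matches to CCAAT, 1 to TATAAA and 1 to ATTTGCAT, and H4f16 held no exact match. Near matches, such as tataag in the H4f16 window, were not counted. Of 32851 promoter windows of this length, 37.4% held CCAAT, 13.6% TATAAA and 1.74% ATTTGCAT. Among the 56 listed histone genes with a window, the shares were 83.9%, 57.1% and 17.9%. A match is a description of letters and shows no binding.

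Gm20628 (chr3:96267075-96270289, minus strand), an antisense noncoding RNA, lies in a histone cluster on chromosome 3 and overlaps 2 histone genes on the opposite strand (Hist2h3b and Hist2h2bb). It was 0.206, 0.644, 0.645 and 0.159 CPM in the AD p38KO group, against 5.21, 3.31, 3.09 and 5.01 CPM in the AD p38+/+ group. The AD p38KO values are near the level of 3 reads, and 2 of the 4 lay under it. Gm20628 fell by 2.37 in log2 units (SE 0.399, adjusted p = 0.0388), a value that depends on the 0.5 CPM added. It passed the filter only through the AD p38+/+ group, so that a lower value was fixed by the filter, and with no filter it was not called (adjusted p = 0.0745). The call was lost without AD p38KO mouse 1 (adjusted p = 0.0844) or 4 (0.0835), any AD p38+/+ mouse (0.092 to 0.25), WT p38KO mouse 2 (0.0561) or 3 (0.0713), or WT p38+/+ mouse 1 (0.0508), 2 (0.0649) or 3 (0.0504). The list of this cluster was drawn around Gm20628, a called gene, and includes it. Of its 15 genes 10 were tested, Gm20628 among them, with a median log2 fold change of -1.06. With Gm20628 counted, 6 of the 10 had an unadjusted p under 0.05 and were lower (4.41% of all genes). H2ac18, a histone H2A gene of the cluster, was 13.7, 21.1, 16.2 and 17.003 CPM in the AD p38KO group, against 50.7, 33.9, 33.9 and 35.2 CPM in the AD p38+/+ group (adjusted p = 0.381). Bola1, a gene of the same list that encodes no histone, was 14.4, 11.7, 14.4 and 15.02 CPM in the AD p38KO group, against 12.8, 13.3, 13.3 and 13.4 CPM in the AD p38+/+ group and overlapped. Because the strand of counting is not stated, Gm20628 and the histone genes it overlaps cannot be told apart.

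**Figure D4:**
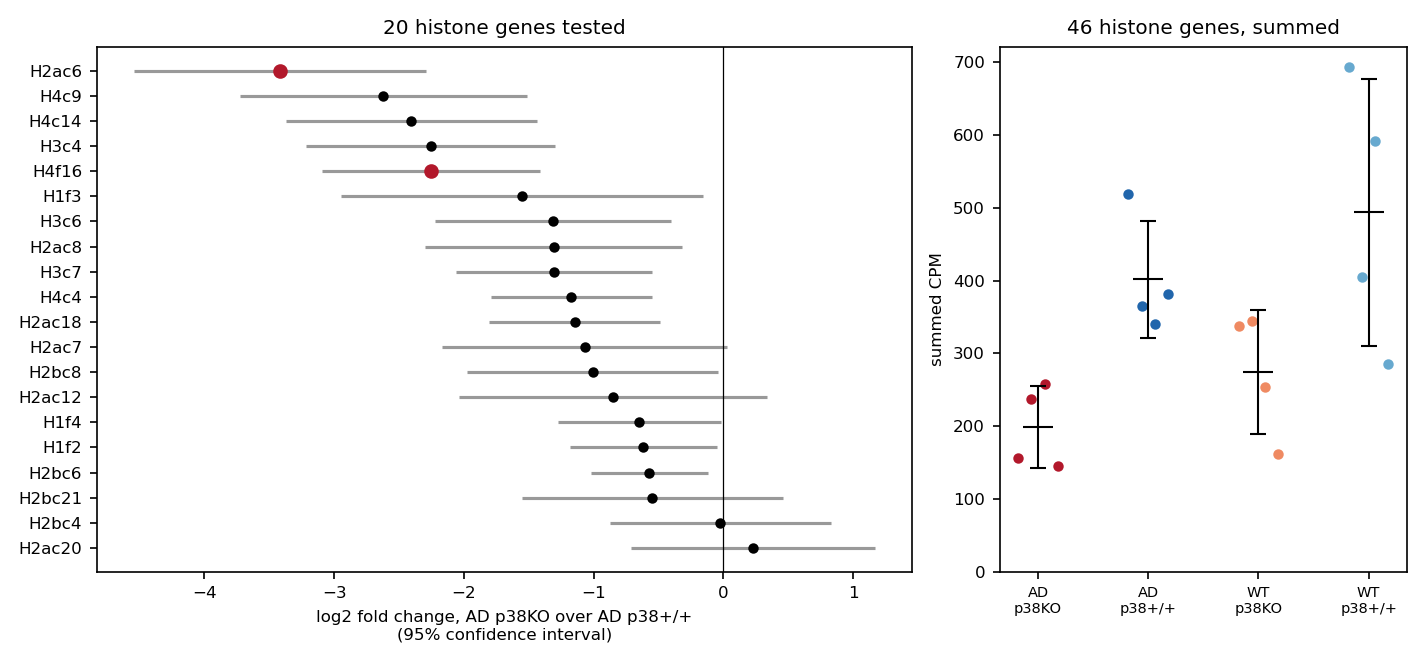
Left, log2 fold change of AD p38KO over AD p38+/+ microglia with its 95% confidence interval for the 20 histone genes tested, red where the adjusted p was under 0.05. Right, summed CPM of the 46 listed histone genes in each library, with group mean and SD (n = 4); the highest AD p38KO mouse has 258.0 CPM and the lowest AD p38+/+ mouse 340.4 CPM.

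Genes of the cell cycle, a list of cyclins, kinesins, replication and checkpoint factors, had lower values in the AD p38KO mice but no gene was called. Of 31 tested genes, 28 had a negative log2 fold change (median -0.61), and 6 were lower, 0 higher, at an unadjusted p under 0.05 (4.41% and 2.41% of all genes). Among all genes with a mean of 2 to 5 CPM, 78.8% of those past this unadjusted threshold were lower. The sum over the list was 464 ± 10.4 CPM in AD p38KO and 541 ± 29.2 CPM in AD p38+/+ microglia (mean ± SD, 4 mice each), without overlap. The 6 genes were Birc5, Bub1b, Cdc20, Cenpe, Mki67 and Tpx2, scarce genes of mitosis or, for Mki67, of proliferating cells. Cenpe, a kinetochore motor, was 0, 0.637, 0.388 and 0.8797 CPM in the AD p38KO group, against 1.67, 1.52, 1.8996 and 2.91 CPM in the AD p38+/+ group (adjusted p = 0.315), and it passed the filter only through the AD p38+/+ group. Bub1b, a spindle checkpoint kinase, was 0, 0, 5.05 and 0 CPM in the AD p38KO group, against 5.95, 3.86, 5.21 and 1.49 CPM in the AD p38+/+ group. Pcna, the sliding clamp of DNA polymerase, was 49.7, 43.1, 37.3 and 57.97 CPM in the AD p38KO group, against 49.7, 42.05, 42.4 and 48.1 CPM in the AD p38+/+ group, and Mcm3, a subunit of the replicative helicase, was 76.3, 92.1, 107.2 and 86.2 CPM in the AD p38KO group, against 100.6, 114.9, 105.3 and 100.00 CPM in the AD p38+/+ group. Slbp, which binds the stem-loop of histone mRNAs, was 71.05, 71.1, 74.8 and 92.03 CPM in the AD p38KO group, against 84.6, 81.98, 90.7 and 92.1 CPM in the AD p38+/+ group, with overlap. In WT mice the cell cycle list had a median of 0.14, against -0.96 for the histone genes.

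Pcdhgc3 (chr18:37806364-37841873, plus strand), a γ-protocadherin for cell adhesion, was listed at 0 in all 4 AD p38KO libraries, against 3.401, 3.401, 3.06 and 1.19 CPM in AD p38+/+ mice. It passed the test (adjusted p = 0.0494). With no AD p38KO library at 1 CPM it passed the filter only through the AD p38+/+ group, so that its direction was fixed by the filter. It was called with no filter too. WT p38KO mice had 0.886, 2.45, 1.12 and 0.817 CPM, against 0, 0, 0.117 and 1.58 CPM in WT p38+/+ mice, so the direction in WT mice was the opposite (log2 fold change 1.19, adjusted p = 1). The difference between both effects had the smallest unadjusted p of all genes (1.71e-05) and an adjusted p of 0.221. The call was lost without any single library except AD p38+/+ mouse 4, WT p38KO mouse 4 or WT p38+/+ mouse 4 (adjusted p of 0.051 to 0.261). Its last exons are common to the whole γ cluster, and a 0 may be a failed estimate of how shared reads are divided. Of 19 cluster genes tested, the others were not called. Pcdhgb2, the most abundant, was 40.4, 103.6, 89.4 and 84.9 CPM in the AD p38KO group, against 118.5, 105.6, 103.7 and 93.4 CPM in the AD p38+/+ group, and the summed cluster was 272 ± 32.5 CPM in AD p38KO and 301 ± 39.5 CPM in AD p38+/+ microglia (mean ± SD, 4 mice each), with overlap.

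Of 29301 transcripts tested, 4 rose (0.0137%) and 11 fell (0.0375%). Besides those of Mapk14, Cx3cr1, Lgi4, H2ac6 and Gm20628, several belonged to genes whose total was not called. Clasp2 encodes a protein that stabilizes microtubule ends, and its gene lies on the same chromosome as Cx3cr1 (transcript at chr9:113812598-113918191). Its transcript ENSMUST00000166734 was 1.24, 1.08, 2.16 and 1.31 CPM in the AD p38KO group, against 14.4, 20.01, 22.003 and 29.3 CPM in the AD p38+/+ group. The groups were wide apart, and the transcript fell by 3.48 in log2 units (SE 0.4098, adjusted p = 0.00134). The WT log2 fold change was -3.50 (adjusted p = 0.000925). ENSMUST00000137012, a noncoding transcript of the oestrogen receptor gene Esr1 (chr10:4936526-5001657), was 3.89, 1.84, 1.81 and 2.21 CPM in the AD p38KO group, against 0, 0.00222, 0 and 0.0232 CPM in the AD p38+/+ group. It passed the filter only through the AD p38KO group and rose (adjusted p = 0.00221), and its fitted log2 values of 2.48 in AD and 2.68 in WT mice depend on the 0.5 CPM added. CreERT2 contains the ligand-binding domain of an oestrogen receptor, and whether its mRNA contributed reads to this transcript was not tested.

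Casp8 encodes an initiator caspase of cell death pathways, and its transcript ENSMUST00000190213 was 2.81, 2.64, 1.71 and 2.34 CPM in the AD p38KO group, against 13.02, 11.2, 9.98 and 9.79 CPM in the AD p38+/+ group. It fell by 2.01 (standard error 0.2801, adjusted p = 0.00586) and stayed called without any single AD library, but not in the fit of the 8 AD libraries alone (adjusted p = 0.0984). Rnf180, a membrane-bound ubiquitin ligase gene, gave 0.0931, 0.139, 0.124 and 0.0415 CPM of ENSMUST00000069686 in AD p38KO mice, all under the level of 3 reads, against 8.51, 2.71, 2.62 and 2.499 CPM in AD p38+/+ mice (adjusted p = 0.0218), and its WT log2 fold change was -2.70. The nuclear receptor gene Ppard lies close to Mapk14 on chromosome 17. A retained-intron transcript of Ppard, ENSMUST00000233383 (chr17:28293246-28296972), was 0.226, 0.766, 0.317 and 0.406 CPM in the AD p38KO group, against 5.62, 2.57, 5.24 and 4.12 CPM in the AD p38+/+ group. It fell by 2.38 (adjusted p = 0.0306), and in WT mice its log2 fold change was -0.20. A transcript of Rogdi, ENSMUST00000023191, rose, at 13.6, 8.17, 9.06 and 11.6 CPM in the AD p38KO group, against 3.49, 3.38, 4.63 and 3.21 CPM in the AD p38+/+ group (adjusted p = 0.0456). C5ar2, a receptor for the complement fragment C5a, gave 8.38, 7.81, 13.2 and 4.35 CPM of ENSMUST00000171425 in the AD p38KO group, against 19.3, 36.2, 26.9 and 25.7 CPM in the AD p38+/+ group, and this transcript fell by 1.68 (adjusted p = 0.0456). The calls of Rnf180, Ppard, Rogdi and C5ar2 were each lost without at least 5 of the 8 single AD libraries, with adjusted p up to 0.0732, 0.157, 0.155 and 0.17. The Rnf180 and Ppard transcripts passed the filter only through the AD p38+/+ group.

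Beyond the transcripts of Mapk14, no gene of the p38 pathway was called. Of 32 listed genes 29 were tested, and the 3 below the filter were Mapk11 and Mapk13, which encode other p38 isoforms, and Hspb1. Of the 29, 3 were higher and 1 lower at an unadjusted p under 0.05 (2.41% and 4.41% of all genes), and the median log2 fold change was 0.01. Upstream of p38α, Map3k7, which encodes the kinase TAK1, was 62.9, 47.4, 44.7 and 62.3 CPM in the AD p38KO group, against 36.3, 38.9, 41.003 and 31.3 CPM in the AD p38+/+ group. The groups did not overlap (log2 difference 0.54, adjusted p = 0.473). Mapk12, the gene of p38γ, was 2.48, 3.34, 0.621 and 11.4 CPM in the AD p38KO group, against 1.204, 0.758, 1.76 and 0.213 CPM in the AD p38+/+ group (adjusted p = 0.699). AD p38KO mouse 4 was far above the other mice. Downstream, the MEF2 transcription factors were near equal: Mef2a was 663, 689, 805 and 721 CPM in the AD p38KO group, against 692, 746, 678 and 729 CPM in the AD p38+/+ group and Mef2c was 780.1, 669.6, 869 and 939.8 CPM in the AD p38KO group, against 816, 661, 789 and 704 CPM in the AD p38+/+ group. Tfeb, a regulator of lysosomal genes, was 50.3, 53.1, 49.1 and 67.2 CPM in the AD p38KO group, against 32.2, 39.2, 43.9 and 51.1 CPM in the AD p38+/+ group (adjusted p = 0.716).

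Dusp1, the phosphatase that inactivates p38 and JNK, had the largest lower value of the pathway. It was 15.8, 6.68, 14.4 and 9.95 CPM in the AD p38KO group, against 73.3, 34.8, 21.3 and 26.5 CPM in the AD p38+/+ group. The groups did not overlap, but the AD p38+/+ mice were widely spread, and the log2 fold change of -1.60 had a standard error of 0.484 and an adjusted p of 0.495. Dusp1 is also an immediate early gene that cell dissociation can induce. Of 26 immediate early and dissociation genes tested, 4 were lower (Btg2, Dusp1, Nr4a1 and Jun) and 0 higher at an unadjusted p under 0.05, against 4.41% and 2.41% of all genes, and the median was -0.14. Jun, a subunit of AP-1, was 280.1, 223, 221 and 229 CPM in the AD p38KO group, against 469, 318, 353 and 352 CPM in the AD p38+/+ group (adjusted p = 0.719). Btg2, an antiproliferative gene, was 239.8, 311, 304 and 262 CPM in the AD p38KO group, against 392, 361, 335 and 367 CPM in the AD p38+/+ group (adjusted p = 0.485). Neither gene overlapped between the groups, and both were highest in AD p38+/+ mouse 1. The list summed to 3029 to 3253 CPM in AD p38KO and 3189 to 3914 CPM in AD p38+/+ mice.

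Other MAP kinase genes were likewise not called. Of 23 tested, 2 were higher, 0 lower, at an unadjusted p under 0.05 (2.41% and 4.41% of all genes), with a median of 0.01. Map3k1, a kinase upstream of JNK, was 63.8, 67.96, 79.4 and 63.004 CPM in the AD p38KO group, against 44.1, 52.6, 46.6 and 45.5 CPM in the AD p38+/+ group, without overlap (adjusted p = 0.473). Dusp2, a phosphatase of MAP kinases induced in activated immune cells, was 3.08, 1.51, 1.55 and 4.94 CPM in the AD p38KO group, against 1.14, 0.414, 0.704 and 0.7802 CPM in the AD p38+/+ group, a scarce transcript with no overlap (adjusted p = 0.553). Dusp6, the abundant phosphatase of ERK, was 1073, 994, 1005 and 1118 CPM in the AD p38KO group, against 1067, 844, 1369 and 1220.2 CPM in the AD p38+/+ group and overlapped.

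Disease-associated microglia (DAM) genes, which microglia raise near plaques, were not called in the comparison of AD p38KO with AD p38+/+ mice. Of 41 tested, 0 had an unadjusted p under 0.05, against 313 higher and 572 lower among all 12967 genes. Of the 41, 17 were positive and 24 negative, with a median of -0.02. Trem2, a lipid receptor needed for this state, was 1101, 954, 774 and 1055 CPM in the AD p38KO group, against 973, 872, 839 and 856 CPM in the AD p38+/+ group (log2 difference 0.12, 95% interval -0.10 to 0.35). Lpl, a lipoprotein lipase, was 112.03, 114.8, 80.1 and 83.4 CPM in the AD p38KO group, against 196, 163, 112.99 and 98.8 CPM in the AD p38+/+ group, with a much wider interval (-1.41 to 0.39). Ctsb, a lysosomal protease, was 4911, 4401, 3777 and 4284 CPM in the AD p38KO group, against 4968, 4600.1, 4293 and 4234 CPM in the AD p38+/+ group (95% interval -0.28 to 0.15). Of 35 homeostatic genes, 0 were higher and 3 lower at an unadjusted p under 0.05 (2.41% and 4.41% of all genes), and the median was 0.05. Irf8, a transcription factor of the microglial lineage, was 894, 769, 832 and 767 CPM in the AD p38KO group, against 646, 745, 727 and 758 CPM in the AD p38+/+ group, above all AD p38+/+ mice by a narrow gap (adjusted p = 0.757).

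**Figure D5:**
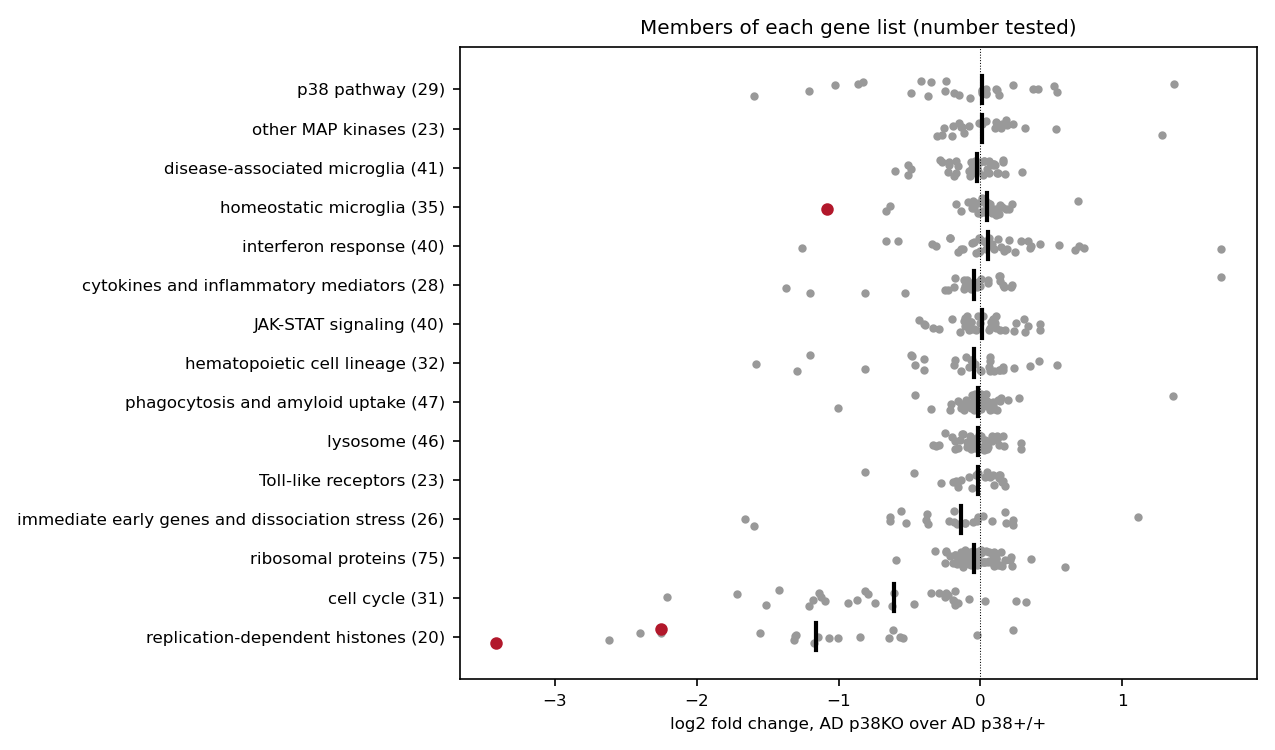
Log2 fold change of AD p38KO over AD p38+/+ microglia (horizontal axis) for each tested member of 15 gene lists, with the list median as a black bar and genes with an adjusted p under 0.05 in red. Cell cycle genes have a median of -0.61 and histone genes of -1.16, while the medians of the other 13 lists run from -0.14 to 0.05.

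Inflammatory genes, the best known output of p38 signaling, were not called either. Of 28 cytokine and mediator genes tested the median was -0.04. Ccl9, a chemokine gene, was 97.1, 86.7, 105.4 and 47.2 CPM in the AD p38KO group, against 118.1, 121, 118.3 and 109.7 CPM in the AD p38+/+ group, without overlap (adjusted p = 0.665). Il1b, the gene of interleukin 1β, was scarce, at 1.65, 1.99, 3.34 and 4.399 CPM in the AD p38KO group, against 8.898, 5.17, 3.59 and 3.901 CPM in the AD p38+/+ group (log2 difference -0.81, adjusted p = 0.795). Its values overlapped, and the highest was that of AD p38+/+ mouse 1. Pycard, an inflammasome adaptor, was 222, 228, 214 and 203 CPM in the AD p38KO group, against 181, 189, 211 and 169 CPM in the AD p38+/+ group (adjusted p = 0.732). Of 40 interferon response genes, 2 were higher, 0 lower, at an unadjusted p under 0.05 (2.41% and 4.41% of all genes), and the median was 0.05. Among 40 genes of JAK-STAT signaling the median was 0.01, and among 32 of the hematopoietic lineage it was -0.05. Of 23 Toll-like receptor genes tested, Tlr5, the receptor for flagellin, was 22.7, 15.8, 30.3 and 12.2 CPM in the AD p38KO group, against 31.2, 36.8, 36.2 and 32.3 CPM in the AD p38+/+ group, without overlap (adjusted p = 0.475).

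Genes of antigen presentation and amyloid handling were also near 0. The medians were -0.05 for 19 MHC class I genes, 0.09 for 10 MHC class II genes, -0.02 for 47 genes of phagocytosis and amyloid uptake, -0.05 for 12 amyloid-degrading enzymes, -0.02 for 46 lysosomal and -0.06 for 30 autophagy genes. C1qa, a subunit of complement C1q that tags material for uptake, was 3989, 4419.7, 3659.8 and 3918 CPM in the AD p38KO group, against 3856, 4595, 3989.6 and 4306 CPM in the AD p38+/+ group (95% interval of the log2 fold change -0.26 to 0.13). C3, the central complement component, was scarce but higher in every AD p38KO mouse, at 4.96, 3.66, 3.03 and 12.9 CPM in the AD p38KO group, against 2.68, 0.896, 2.32 and 1.49 CPM in the AD p38+/+ group (log2 difference 1.36, adjusted p = 0.723). C3ar1, the receptor for the C3a fragment, was 703, 736, 717 and 755 CPM in the AD p38KO group, against 889, 741, 873 and 869 CPM in the AD p38+/+ group (adjusted p = 0.699). The lysosomal genes included the abundant Psap, which encodes the precursor of the saposins. It was 5019.5, 4701, 4401 and 5443 CPM in the AD p38KO group, against 3649, 4154, 3957 and 4278 CPM in the AD p38+/+ group, without overlap (log2 difference 0.28, adjusted p = 0.699). Atp6v1h, a subunit of the proton pump that acidifies lysosomes, was 57.1, 54.7, 58.4 and 58.3 CPM in the AD p38KO group, against 68.2, 77.1, 66.9 and 71.9 CPM in the AD p38+/+ group, lower without overlap (log2 difference -0.31, adjusted p = 0.633).

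Lists of basic metabolism had medians of -0.02 for 19 glycolysis genes, -0.18 for 22 genes of cholesterol synthesis, -0.15 for 13 genes of the mitochondrial genome and -0.04 for 75 ribosomal protein genes, with no gene called. Pfkm, a phosphofructokinase of glycolysis, was 1.804, 7.003, 5.51 and 0.203 CPM in the AD p38KO group, against 9.299, 9.79, 9.01 and 8.09 CPM in the AD p38+/+ group, without overlap (log2 difference -1.70, adjusted p = 0.521). The 13 mitochondrial genes summed to 7389.9 to 9571 CPM in AD p38KO and 8654 to 10744 CPM in AD p38+/+ mice.

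The study named 7 genes for this comparison, a choice made on these samples. It analysed transcripts with DESeq2 and took the 7 from the genes it found affected by genotype. Here gene CPM were tested with limma over 12967 genes, so the 2 results are not on the same measure. None of the 7 was called here. At an unadjusted p under 0.05, 4 were higher and 2 lower (2.41% and 4.41% of all genes). In the limma test of transcripts, no transcript of these 7 genes was called either. The smallest adjusted p among them was 0.372, for ENSMUST00000237386 of Csf2ra (log2 difference -0.74). Csf2ra, which encodes the ligand-binding chain of the GM-CSF receptor, was 71.6, 67.3, 61.97 and 56.6 CPM in the AD p38KO group, against 95.1, 81.02, 75.1 and 87.9 CPM in the AD p38+/+ group, without overlap (log2 difference -0.40, adjusted p = 0.714). N4bp2, which encodes a polynucleotide kinase, was 8.496, 11.2, 11.1 and 9.14 CPM in the AD p38KO group, against 6.49, 4.28, 5.699 and 2.34 CPM in the AD p38+/+ group, also without overlap (log2 difference 1.08, adjusted p = 0.607). The other 5 genes overlapped between the groups. Rtp4, an interferon-induced chaperone, was 55.04, 63.7, 56.3 and 36.3 CPM in the AD p38KO group, against 53.4, 26.3, 37.1 and 21.4 CPM in the AD p38+/+ group (adjusted p = 0.732). Ifitm2, an interferon-induced restriction factor, was 5.64, 4.46, 3.57 and 5.14 CPM in the AD p38KO group, against 12.4, 6.07, 5.13 and 6.81 CPM in the AD p38+/+ group (adjusted p = 0.769). The highest Ifitm2 value was that of AD p38+/+ mouse 1.

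Klf7 encodes a zinc finger transcription factor and was 41.1, 26.2, 36.7 and 51.6 CPM in the AD p38KO group, against 27.8, 27.2, 26.03 and 27.2 CPM in the AD p38+/+ group (log2 difference 0.47, adjusted p = 0.672). The AD p38+/+ mice were almost equal and the AD p38KO mice spread. Cdc37l1, whose product binds Hsp90, was 37.5, 42.4, 47.2 and 41.4 CPM in the AD p38KO group, against 40.02, 26.2, 31.9 and 35.04 CPM in the AD p38+/+ group (adjusted p = 0.732), and Tmc7, of a family of membrane channel proteins, was 21.3, 20.6, 21.7 and 13.1 CPM in the AD p38KO group, against 21.6, 33.2, 27.2 and 30.1 CPM in the AD p38+/+ group (adjusted p = 0.609). In WT mice Tmc7 had a log2 fold change of -0.67 (adjusted p = 1), close to the -0.55 in AD mice. For Klf7 the WT value was -0.42, of the opposite sign, and the difference between the AD and WT effects had an unadjusted p of 0.00188 that did not pass adjustment.

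Among genes that were not called, those with separate groups, a mean of at least 5 CPM and the smallest unadjusted p were followed further, 12 in each direction. On the higher side, Pigq, which acts in the synthesis of GPI anchors, was 68.8, 84.3, 81.9 and 89.4 CPM in the AD p38KO group, against 54.4, 53.5, 54.8 and 66.03 CPM in the AD p38+/+ group (log2 difference 0.50, adjusted p = 0.252). St3gal3, a sialyltransferase, was 32.7, 20.2, 22.5 and 33.02 CPM in the AD p38KO group, against 14.5, 16.8, 17.5 and 13.4 CPM in the AD p38+/+ group (log2 difference 0.76). Dcbld2, a transmembrane receptor-like protein, was 18.4, 15.9, 16.4 and 26.3 CPM in the AD p38KO group, against 14.2, 7.05, 10.3 and 7.76 CPM in the AD p38+/+ group (log2 difference 0.96). Zfpm1, a cofactor of GATA factors in blood cell development, was 10.5, 14.4, 8.46 and 5.89 CPM in the AD p38KO group, against 3.21, 3.79, 3.17 and 2.06 CPM in the AD p38+/+ group (log2 difference 1.49). Prdx3, a mitochondrial peroxidase, had a small and even difference, at 83.9, 69.8, 64.1 and 72.7 CPM in the AD p38KO group, against 52.1, 50.1, 53.1 and 56.5 CPM in the AD p38+/+ group (log2 difference 0.45). The remaining genes of this side were Rps4l, Gm44144, Vapb, Map3k7, Map3k1, Amotl1 and Pkn2, with log2 fold changes of 0.40 to 1.40. In WT mice the log2 fold changes ran from -0.15 to 0.51 over the 12 genes.

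On the lower side, Ncf4, a subunit of the phagocyte NADPH oxidase, was 44.96, 57.4, 45.7 and 52.3 CPM in the AD p38KO group, against 71.9, 83.98, 73.5 and 85.7 CPM in the AD p38+/+ group (log2 difference -0.65, adjusted p = 0.182). Cep152, a scaffold of centriole duplication, was 18.7, 20.6, 18.5 and 27.1 CPM in the AD p38KO group, against 36.1, 37.2, 29.8 and 34.5 CPM in the AD p38+/+ group (log2 difference -0.70). Cul7, a cullin of ubiquitin ligases, was 4.66, 8.99, 14.8 and 8.46 CPM in the AD p38KO group, against 20.9, 16.1, 25.9 and 24.9 CPM in the AD p38+/+ group (log2 difference -1.29). Ehmt1, a histone H3 lysine methyltransferase, was 22.9, 32.5, 39.8 and 19.9 CPM in the AD p38KO group, against 55.1, 43.99, 45.2 and 44.8 CPM in the AD p38+/+ group (log2 difference -0.75). Mpv17l, a peroxisomal membrane protein, was 4.14, 2.79, 2.41 and 2.44 CPM in the AD p38KO group, against 7.76, 6.69, 8.72 and 7.38 CPM in the AD p38+/+ group (log2 difference -1.26). H4c9, Gm21860 and G530011O06Rik, described above, and 6430511E19Rik, Rhbdd2 and Tex2 were also on this side, and the adjusted p of the genes named here ran from 0.132 to 0.261.

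Some scarce genes were near 0 in AD p38KO mice, and they are named here after their values were seen. Bcan, a proteoglycan of the brain matrix, was 0.301, 0, 0 and 0 CPM in the AD p38KO group, against 1.81, 1.45, 2.67 and 1.13 CPM in the AD p38+/+ group. Cntn1, a neural adhesion molecule, was 0, 0.716, 0 and 0 CPM in the AD p38KO group, against 1.74, 1.93, 4.08 and 1.42 CPM in the AD p38+/+ group. Both passed the filter only through the AD p38+/+ group, so that lower values were fixed by it, and neither was called (adjusted p = 0.18 and 0.18). Igfbp2, which binds insulin-like growth factors, was 1.13, 1.35, 0.311 and 0 CPM in the AD p38KO group, against 3.68, 4.96, 4.995 and 2.55 CPM in the AD p38+/+ group (adjusted p = 0.182). The astrocyte marker list summed to 164 to 202 CPM in AD p38KO and 165 to 233 CPM in AD p38+/+ mice, and the oligodendrocyte precursor list to 2.55 to 11.03 CPM in AD p38KO and 1.9 to 24.6 CPM in AD p38+/+ mice. Their part in these 3 genes was not tested.

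Lists of other cell types gave little separation. Border-associated macrophage markers come from cells that line vessels and meninges and can pass a CD11b gate. They summed to 38.8 to 82.97 CPM in AD p38KO and 38.7 to 164 CPM in AD p38+/+ mice. In 1 of the 10 tested, Ms4a7, the groups were separate with lower AD p38KO values, against 1.8% of all genes. Ms4a7 was 1.65, 2.47, 2.87 and 1.76 CPM in the AD p38KO group, against 11.4, 5.999, 4.503 and 3.19 CPM in the AD p38+/+ group (adjusted p = 0.631). Mrc1, the mannose receptor that defines these cells, was 10.5, 28.97, 29.98 and 11.2 CPM in the AD p38KO group, against 49.7, 35.5, 10.3 and 10.3 CPM in the AD p38+/+ group. Monocyte and granulocyte markers summed to 4.59 to 25.2 CPM in AD p38KO and 6.01 to 11.003 CPM in AD p38+/+ mice, and lymphocyte and NK markers to 13.9 to 28.3 CPM in AD p38KO and 22.3 to 33.97 CPM in AD p38+/+ mice. The part of these cells in the results above was not tested.

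No gene was shown to respond differently to p38α deletion in AD and WT mice. The interaction gave 0 of 12967 genes (0%) at an adjusted p under 0.05 (limma; smallest adjusted p = 0.221), with 486 at an unadjusted p under 0.05. For the 7 genes called in AD mice, the WT log2 fold change had the same sign in 6, and Pcdhgc3 was the exception. Lgi4, Mid1 and H2ac6 had a larger difference in AD than in WT mice, with unadjusted interaction p of 0.0234, 0.0232 and 0.0277 that did not pass adjustment. The 7 genes were chosen by their AD difference, which is also part of the interaction. A larger difference in AD than in WT mice was thus favoured by the choice.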

How the data were processed

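Microglia of 16 mice were profiled by RNA-seq, 1 library per mouse, from the 4 mice with the best RNA of each genotype. The deposited values are CPM per gene and per transcript, to which the authors added 0.0001. Per the labels and the submitters' processing notes, reads were aligned with STAR to mm10 and quantified in Partek Flow 10.0.22.0828 against Ensembl transcripts, where reads of shared sequence are divided by estimation. The strand of counting and the version of STAR are not given in the sources used here. Here 0.0001 was subtracted, values under 1e-06 CPM were set to 0, and features that reached 1 CPM in 4 or more of the 8 AD libraries were tested. The test was limma 3.58.1 with a trend (R 4.3.3) on log2(CPM + 0.5), with all 16 libraries in 1 fit, the contrast AD p38KO minus AD p38+/+, two-sided moderated p-values, Benjamini-Hochberg adjustment over all features tested, and a threshold of 0.05. Fold changes are on that log2 scale and understate the change of low genes. Per-library summaries were compared by an exact permutation test, which with 4 against 4 mice cannot go below p = 0.0286. Each mouse is 1 sample. The values are estimates rather than whole reads, so no count model was run, and the worth of 1 read was estimated from their lowest steps. Limits of 3 reads cover counting error only.

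Genes were named by a rule: all called genes, Mapk14 and its transcripts, the 7 genes the study named, up to 12 not-called genes in each direction with a mean of at least 5 CPM whose groups did not overlap, up to 4 members of each list by p and up to 4 by level, and up to 10 called transcripts. Some genes that the rule names are not reported here. The members, lists and rule were chosen with earlier results of these data known. Gene positions are those of GRCm38, and promoters are of RefSeq (GRCm38.p6). Tables were joined in Python 3.11.15 (pandas 2.3.3, numpy 2.4.6) and plots drawn with matplotlib 3.10.9. Alternatives covered the pseudocount, the filter, the scaling, covariates, the libraries in the fit and leaving out libraries; the sums of histone and cell cycle genes were rescaled and refitted without libraries in alternatives chosen after seeing the data.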

Additional observations from a re-analysis of the deposited data

Results flagged for a closer look

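In 13 of 80 groups of 4 mice 1 library stood far from the other 3, by more than Dixon's 95% critical value. For independent, normally distributed values, chance alone gives this in about 1 in 20 groups. The values here were CPM, some near 0, and many came from the same libraries, so the 13 cannot be set against that rate. Among AD p38KO libraries, mouse 4 had 467 CPM of red blood cell markers, against 0.0796 to 2.72 CPM in the other 3, and 13.1 CPM of Tmc7, against 20.6 to 21.7 CPM. Mouse 1 had 12.1 CPM of neuron markers (the others 5.203 to 6.13 CPM), 38.8 CPM of border-associated macrophage markers (the others 78.96 to 82.97 CPM) and 25.2 CPM of monocyte and granulocyte markers (the others 4.59 to 8.06 CPM). Mouse 3 had 0.282 CPM of the Clasp2 transcript ENSMUST00000215022 (the others 0.141 to 0.158 CPM) and 0.761 CPM of the Lrch3 transcript ENSMUST00000170201 (the others 0.0748 to 0.170 CPM).

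Among AD p38+/+ libraries, mouse 4 had 1.19 CPM of Pcdhgc3, where the others had 3.06 to 3.401 CPM, 0.0232 CPM of the Esr1 transcript ENSMUST00000137012, where the others had 0 to 0.00222 CPM, and 12.9 CPM of red blood cell markers, where the others had 0.211 to 1.79 CPM. Mouse 1 had 8.51 CPM of the Rnf180 transcript ENSMUST00000069686 (the others 2.4994 to 2.71 CPM), 55754 CPM of microglial markers (the others 63440.3 to 64095 CPM) and 36.3 CPM of endothelial and mural markers (the others 48.2 to 49.6 CPM).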

How the results depend on the processing

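No called result changed direction. Against the 7 genes of the report, 4 genes were called with a pseudocount of 0.1 CPM and 4 with 1 CPM. With sex as a covariate 4 were called, and 4 with the S0 label (a mark in the library names) as a covariate. Without AD p38KO mice 1 and 4, 2 were called. All genes called in these settings were among the 7. The fit of the 8 AD libraries alone called 4 genes, of which 3 were among the 7. It lost H2ac6, H4f16, Gm20628 and Pcdhgc3 (adjusted p = 0.347, 0.331, 0.167 and 0.166) and gained Gm21860. Leaving out 1 library gave 2 to 10 genes: 2 when AD p38+/+ mouse 1 or 3 was left out, 3 for AD p38+/+ mouse 2, 4 for AD p38+/+ mouse 4, for WT p38KO mouse 2 or 3 and for WT p38+/+ mouse 1, 2 or 3, and 10 for AD p38KO mouse 2 or WT p38KO mouse 4. Of these 10, 6 were among the 7 without AD p38KO mouse 2, and 7 without WT p38KO mouse 4. Against the 15 transcripts of the report, 8 transcripts were called with a pseudocount of 1 CPM, all among the 15. The fit of the AD libraries alone called 8, of which 5 were among the 15. Without 1 AD library 7 to 32 were called (7 without AD p38+/+ mouse 3, 32 without AD p38KO mouse 3). The difference between the AD and WT effects gave 4 genes with no filter on low values (Gm48529, Pcdhgc3, Proser2 and Rhobtb3), and 0 to 1 without 1 library (Pcdhgc3 without WT p38+/+ mouse 4). H2ac6 was not called with a pseudocount of 0.1 CPM (adjusted p = 0.0791), in the AD libraries alone (0.347) or with a robust fit without the trend (0.0654). Of 37 list medians, 4 moved in at least 1 setting by more than the median standard error of their member genes. That limit is not the spread of a list median, and smaller shifts were not counted. Over the alternatives the cell cycle median ran from -0.84 to -0.23 within it. The median of border-associated macrophage markers ran from -0.52 to 0.22 within it. The causes of these shifts were not tested.

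Mouse numbers are shared between the groups, but same-numbered mice hardly deviated together (correlations of 0.0285 to 0.0699), so the numbers were not taken as pairs. With the number as a replicate block, 7 genes were called, 5 of them shared: H4f16 and Pcdhgc3 were lost, H4c14 and H4c9 gained. For transcripts the block gave 11 and for the difference between effects 0. With 3 reads worth about 0.2 CPM, the levels of Gm20628, Pcdhgc3 and the isoform 1 transcript of Mapk14 in AD p38KO mice are limited by depth.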
